A study of Mus musculus with 37 samples.

Results

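Polyadenylated RNA of wild-type hippocampal neuronal nuclei was compared with that of control cultures of embryonic neurons. Of the 37 libraries of a mouse study on the methylcytosine dioxygenase Tet2, the comparison took the 10 control libraries whose RNA was extracted with TRIzol: 4 libraries of WT nuclei and 6 libraries of cultures that received a control lentivirus. The nuclei came from the hippocampus of WT mice that, per the series' design, carried Tet2fl/fl alleles, the form of the gene that a Cre recombinase can delete. These mice served as the controls of Tet2 knockout mice with the transgene CamKIIaCreERT2. The cultures were of primary neurons taken at embryonic day 17 and infected with a lentivirus whose hairpin targets luciferase, a gene that mice lack, under the label shLuciferase - control. The strain of both groups was labelled C57/Bl6, and paired-end reads came from stranded libraries of polyA RNA in both. The age and sex of the mice, how the nuclei were purified, the brain region of the cultures and their days in vitro were not given in the sources used here. The labels do not say that the libraries came from separate animals or dissections, so the p-values measure the spread between these libraries, which may be technical.

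A hippocampal neuron of an adult mouse has stopped growing its axon, has dense synapses and fires with a mature set of ion channels and receptors. A neuron of late gestation placed in culture regrows its neurites, and during maturation it replaces early subunits of receptors and channels with adult ones. Dissociated embryonic tissue also holds dividing progenitors and glia unless these are removed, and RNA of a nucleus holds more unspliced and retained transcripts than RNA of a whole cell. Age, tissue, culture, virus, nuclear against whole-cell RNA and the deposited table all followed the group here and cannot be told apart. The level of Xist, an RNA of female cells, followed the group as well, and the part of sex was not tested. In these bulk samples fewer cells of a type and less RNA per cell cannot be told apart either.

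Reads per library came to 6377244 to 12181847 in the nuclei and 3029938 to 43788798 in the cultures. The ribosomal RNA gene Rn45s held 18.1% to 25.9% of the reads in nuclei and 1.46% to 4.17% in cultures, and it was left out before levels were computed as CPM, the reads of a gene scaled to a common library total of 1e+06. Spearman's rho across genes was 0.911 to 0.940 between nuclei, 0.885 to 0.977 between cultures and 0.726 to 0.789 between a nucleus library and a culture library, as a description. The first principal component held 52.9% of the variance and separated the groups. Culture 4 stood apart on the second component and nuclei library 2 on the third. They were the culture with the fewest reads and the nuclei library with the most. That nuclei library held the fewest genes with a read of the nuclei, 13965. Nuclei library 5, with the fewest reads of the nuclei, held the most such genes, 17745. The cause was not tested. A further 6 control cultures, labelled shLuc and extracted with RNeasy, were set in place of the shLuciferase cultures as an alternative. They share the nuclei with the main comparison, so their values are given beside it and are no independent support.

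Of 13877 genes tested, 3278 (23.6%) were higher in nuclei and 3580 (25.8%) were higher in cultures, by limma with Benjamini-Hochberg adjustment at 0.05. In a test against a 2-fold difference, 954 genes (6.87%) were higher in nuclei and 1149 (8.28%) were higher in cultures. Without nuclei library 6 the first of these counts was 633, where 881 of the 954 genes still passed the filter on low values. Without culture 4 the 2-fold counts were 957 and 1186, and without nuclei library 2 they were 685 and 1111. The values of the groups did not overlap for 2298 genes (16.6%) with nuclei higher and for 2629 genes (18.9%) with cultures higher. The median log2 difference, nuclei minus cultures, was -0.01 over all genes tested, with quartiles of -0.96 and 0.91. Log2 differences below are on the scale log2(CPM + 0.5), which understates those of low genes, and adjusted p is that of limma over all 13877 genes. In the plot of gene lists, cell cycle, progenitor and growth-cone genes stood on the culture side, and hippocampal, channel and receptor genes stood on the nuclei side.

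**Figure D1:**
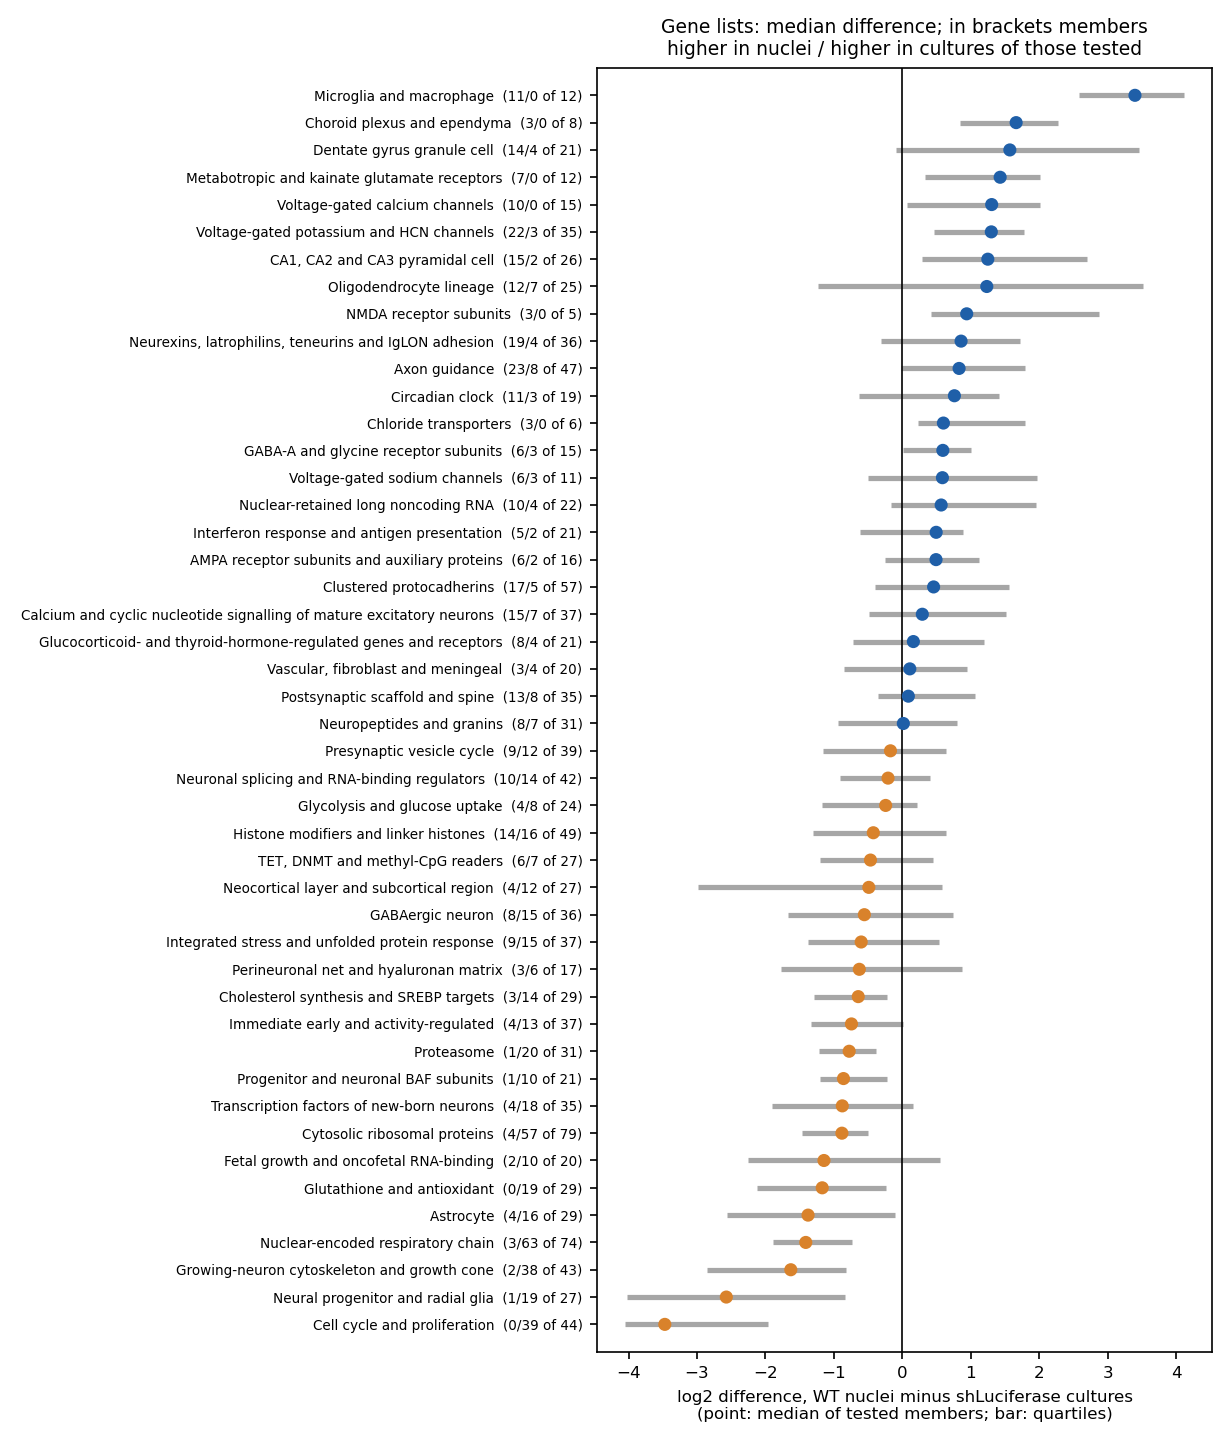
Median log2 difference (x axis, nuclei minus cultures) of the tested members of each gene list with 5 or more tested members, with bars from the lower to the upper quartile. The medians run from -3.47 for cell cycle genes to 3.40 for microglia genes, and the figures in brackets are members higher in nuclei and higher in cultures of those tested. The microglia median rests on 12 of 22 genes that passed the filter on low values and does not support a direction of that list. With no filter it was 2.21.

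Genes of dividing cells had the largest median difference of the lists with cultures higher. Of 44 cell cycle and proliferation genes tested, 39 were higher in cultures, 0 were higher in nuclei (limma; 1 at an unadjusted p under 0.05, 1 with edgeR, 1 with DESeq2 and 1 with voom) and 5 did not pass, with a median log2 difference of -3.47 against -0.01 over all genes. The median was -2.55 against the shLuc cultures and lay between -4.89 and -2.37 over the other settings, with 35 to 39 genes higher in cultures. The 44 genes of the list summed to 391 to 451 CPM in nuclei and to 1928 to 2517 CPM in cultures. Top2a, the topoisomerase that untangles chromosomes in mitosis (chromosome 11, 98992943 to 99024189, build mm10), was at 0.147, 0, 0.733 and 0 CPM in the 4 nuclei libraries. In the cultures it was at 34.6 at the lowest, 64 at the median and 79.7 at the highest. The groups did not overlap, and the log2 difference was -6.44 ± 0.46 (SE), with an adjusted p of 7e-09. Cdk1, the kinase that starts mitosis (chromosome 10, 69335146 to 69352938), was at 0, 0, 0.183 and 0 CPM in nuclei and at 12.6 at the lowest, 19.9 at the median and 25.5 at the highest in cultures, a log2 difference of -5.15 (adjusted p 2.4e-07). Ube2c, the ubiquitin carrier of the anaphase-promoting complex, had 0 reads in each of the 4 nuclei libraries and 10.9 to 21.8 CPM in cultures. Against a nominal floor of 3 counts over the nuclei it was 158-fold higher in cultures. The floor allows for chance in counting and not for the spread between libraries, so such folds are not strict bounds. The gene of Ube2c overlaps Tnnc2 on the other strand. The strand setting of the counting was not stated, so reads of the pair could be mixed. Rrm2, the small subunit of ribonucleotide reductase, was at 0, 0, 0 and 3.98 CPM in nuclei and 61.3 to 95.7 with a median of 69.9 CPM in cultures. Hmgb2, a chromatin protein of dividing cells, was at 6.33, 0, 0 and 1.19 CPM in nuclei and 100.1 to 142 with a median of 107 CPM in cultures. The shLuc cultures held Top2a at 9.61 CPM and Rrm2 at 46.5 CPM at the median.

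These 5 genes are shown with their promoters, since their differences were the largest of the list past the 2-fold test. In dividing cells many such promoters hold CCAAT boxes and the CHR element, written TTTGAA in most cases and TTCGAA in others, which are known from genes expressed late in the cycle. The sequences are from RefSeq, build GRCm38.p6, 250 bases before to 50 after the start, 5′ to 3′ on the gene's strand. Capitals mark matches on either strand of the CCAAT letters and of both forms of the CHR letters, and a match of CCAAT on one strand can overlap one on the other.
Top2a (chr11:99024140-99024439, minus strand): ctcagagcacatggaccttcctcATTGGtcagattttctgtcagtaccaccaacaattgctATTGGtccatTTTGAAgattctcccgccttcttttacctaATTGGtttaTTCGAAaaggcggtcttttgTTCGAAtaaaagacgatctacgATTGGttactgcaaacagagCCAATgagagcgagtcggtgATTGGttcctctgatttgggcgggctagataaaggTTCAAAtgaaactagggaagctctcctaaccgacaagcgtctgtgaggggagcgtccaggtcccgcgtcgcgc
Cdk1 (chr10:69352863-69353162, minus strand): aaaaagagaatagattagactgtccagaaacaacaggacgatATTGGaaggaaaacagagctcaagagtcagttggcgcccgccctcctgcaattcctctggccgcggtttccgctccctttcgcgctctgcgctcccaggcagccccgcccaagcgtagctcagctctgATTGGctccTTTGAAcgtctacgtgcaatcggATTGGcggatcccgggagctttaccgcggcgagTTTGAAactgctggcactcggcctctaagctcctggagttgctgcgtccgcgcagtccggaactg
Ube2c (chr2:164769679-164769978, plus strand): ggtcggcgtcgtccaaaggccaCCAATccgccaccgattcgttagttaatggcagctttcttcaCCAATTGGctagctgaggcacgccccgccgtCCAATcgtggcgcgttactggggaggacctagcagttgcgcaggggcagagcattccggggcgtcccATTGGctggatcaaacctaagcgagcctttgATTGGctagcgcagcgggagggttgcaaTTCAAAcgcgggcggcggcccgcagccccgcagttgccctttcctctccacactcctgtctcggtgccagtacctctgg
Hmgb2 (chr8:57511593-57511892, plus strand): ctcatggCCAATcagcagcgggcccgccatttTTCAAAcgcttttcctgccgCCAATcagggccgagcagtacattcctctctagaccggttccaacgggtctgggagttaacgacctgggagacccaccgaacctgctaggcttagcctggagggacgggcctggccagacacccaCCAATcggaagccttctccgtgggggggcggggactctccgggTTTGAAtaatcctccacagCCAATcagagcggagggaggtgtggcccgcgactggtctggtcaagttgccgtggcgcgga
Rrm2 (chr12:24708004-24708303, plus strand): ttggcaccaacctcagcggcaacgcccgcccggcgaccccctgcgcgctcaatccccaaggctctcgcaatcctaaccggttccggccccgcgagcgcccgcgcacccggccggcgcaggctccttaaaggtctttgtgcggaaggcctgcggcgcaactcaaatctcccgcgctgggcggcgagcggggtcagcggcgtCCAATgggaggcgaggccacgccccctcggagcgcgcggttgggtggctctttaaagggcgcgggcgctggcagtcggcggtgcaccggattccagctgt
The promoter of Top2a held 6 matches of CCAAT, 2 of TTTGAA and 2 of TTCGAA. That of Cdk1 held 3 of CCAAT and 2 of TTTGAA, that of Ube2c 6 of CCAAT and 1 of TTTGAA, and that of Hmgb2 4 of CCAAT and 2 of TTTGAA. The promoter of Rrm2 held 1 match of CCAAT and no match of the CHR letters in this window. Over all 27025 genes with a promoter in the table, 37.9% of promoters held CCAAT, 18.1% held TTTGAA, 1.57% held TTCGAA and 7.70% held CCAAT together with either form of the CHR letters. Of the 44 cell cycle genes 35 had a promoter in the table, 79.5% and under the minimum of 80% set for a check over a list, so no share is given for the list.

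Growth-cone and new-born-neuron genes were higher in cultures too. Of 43 genes of the growing-neuron cytoskeleton and growth cone, 38 were higher in cultures and 2 were higher in nuclei, with a median log2 difference of -1.63. Gap43, the growth-cone protein of extending axons (chromosome 16, 42248442 to 42340651), was at 58.5, 58.5, 54.2 and 46.3 CPM in nuclei. In cultures it was at 818 at the lowest, 1041 at the median and 1585 at the highest, without overlap, and its log2 difference was -4.33 ± 0.18 (SE; adjusted p 3.9e-11), about 20.1-fold. Dpysl3, a collapsin response mediator that binds growing microtubules, was at 31.2, 23.8, 43.4 and 25.5 CPM in nuclei and at 511 at the lowest, 595 at the median and 705 at the highest in cultures (log2 difference -4.27). Tmsb10, an actin-binding thymosin of the embryonic brain, was at 9.57, 6.2, 9.53 and 8.22 CPM in nuclei and at 228 at the lowest, 457 at the median and 598 at the highest in cultures (log2 difference -5.57). All 3 genes showed a gap between the highest nuclei library and the lowest culture. Cd24a and Marcksl1, a surface glycoprotein and an actin-regulating protein of young neurons, were lower in nuclei, at log2 differences of -3.84 and -3.48. Map1b, the microtubule-associated protein of growing axons, was among the 6 most abundant genes of the cultures at 3549 to 9219 with a median of 4798 CPM, against 592, 633, 766 and 606 CPM in nuclei. The list's median against the shLuc cultures was -2.96, with 42 of 43 genes higher in cultures.

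Among 35 tested transcription factors of new-born neurons, 18 were higher in cultures, 4 were higher in nuclei and 13 did not pass (median log2 difference -0.88). Sox11, which drives the early neuronal programme, was at 13.7, 7.89, 17.6 and 10.9 CPM in nuclei and at 156 at the lowest, 262 at the median and 325 at the highest in cultures, a log2 difference of -4.34 ± 0.25 (SE; adjusted p 6.3e-10). Its relative Sox4 was at 0.451 to 4.12 CPM in nuclei and 16.2 to 57.4 CPM in cultures. Rorb and Foxp2, factors of neocortical layers and other regions, were lower in nuclei, at log2 differences of -4.05 and -3.53. Nfia, a factor of glial and neuronal differentiation, was at 27.1, 29.5, 18.1 and 25.6 CPM in nuclei and 101 to 200.4 with a median of 159.7 CPM in cultures. For Nfia, reads of the overlapping gene E130114P18Rik could be mixed in.

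Glutamate receptor genes were higher in nuclei more often than in cultures. Of 5 tested NMDA receptor subunits, 3 were higher in nuclei and 0 in cultures (limma; 0 at an unadjusted p under 0.05, 0 with edgeR, 0 with DESeq2 and 0 with voom). Grin1, the obligatory subunit GluN1, was at 695, 950.4, 856 and 794 CPM in nuclei. In cultures it was at 73.8 at the lowest, 119 at the median and 158 at the highest, and the groups did not overlap (log2 difference 2.87 ± 0.22, SE; adjusted p 1.6e-08). Grin1 overlaps Grin1os on the other strand. Grin2a, the adult subunit GluN2A (chromosome 16, 9567898 to 9995560), was at 145, 197, 165 and 286 CPM in nuclei and at 20.1 at the lowest, 21.5 at the median and 31.7 at the highest in cultures (log2 difference 3.03 ± 0.24, SE; adjusted p 2.3e-08). Grin2b, the subunit GluN2B that precedes it in development, was at 359, 331, 461 and 469 CPM in nuclei and 229 to 386 with a median of 305 CPM in cultures, and its difference of 0.41 did not pass (adjusted p 0.065). The difference of Grin2b passed with 3 other scalings and voom and without culture 1 or 4, at 0.43 to 0.48, and against the shLuc cultures, at 2.27. Grin3a, a juvenile subunit, was higher in nuclei by 0.94 (adjusted p 0.0028). The NMDA list's median of 0.94 rests on 5 genes and moved between 0.41 and 2.02 over the other settings, the shLuc cultures apart.

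Of 16 AMPA receptor subunits and auxiliary proteins, 6 were higher in nuclei and 2 in cultures, with a median of 0.49. The auxiliary proteins Shisa7 and Shisa6, which change AMPA receptor gating, were at 287, 292, 318 and 391 and 132, 117, 105 and 112 CPM in the nuclei libraries. The cultures held Shisa7 at 46.6 to 100.2 with a median of 63.9 CPM and Shisa6 at 22.8 to 47.1 with a median of 33 CPM, so neither gene overlapped between the groups. Cnih3, a cornichon that carries AMPA receptors to the membrane, was higher in nuclei by 1.75 against the shLuciferase cultures, but lower, at a log2 difference of -0.97 against the shLuc cultures, which held it at 279 to 319 CPM. Cacng4, the auxiliary protein of young neurons and glia, was lower in nuclei, at a log2 difference of -3.26. Metabotropic and kainate receptors gave 7 genes higher in nuclei and 0 higher in cultures of 12 tested by limma (0 at an unadjusted p under 0.05, 0 with edgeR, 0 with DESeq2 and 0 with voom), with a median of 1.43. Grik4, the kainate subunit of CA3 and dentate cells, was at 217, 189, 218 and 263 CPM in nuclei and 21.2 to 49.6 with a median of 27.1 CPM in cultures. Grm2, the presynaptic autoreceptor of granule cells, was at 209, 275, 264 and 377 CPM in nuclei and 25.7 to 48.5 with a median of 40.5 CPM in cultures. Neither overlapped between the groups, and the log2 differences were 2.89 for Grik4 and 2.81 for Grm2. Grik2 and Grm7 were higher in nuclei by 2.08 and 1.60.

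Single genes of inhibitory receptors differed in both directions. Of 15 tested GABA-A and glycine receptor subunits, 6 (40%) were higher in nuclei and 3 (20%) in cultures (median 0.59). Over all genes the shares were 23.6% and 25.8%. Gabrd, the delta subunit of extrasynaptic receptors of granule cells, was at 194, 395, 283 and 185 CPM in nuclei and at 11.9 at the lowest, 16.6 at the median and 29.2 at the highest in cultures, a log2 difference of 3.79 (adjusted p 1.1e-08). Glra2, the embryonic glycine receptor subunit, went the other way, from 0.113 to 5.31 CPM in nuclei to 24.9 to 104 with a median of 79.2 CPM in cultures (log2 difference -4.80). Neither Gabrd nor Glra2 overlapped between the groups. Gabra2, an alpha subunit of young neurons, did not pass, with a log2 difference of 0.59 and an adjusted p of 0.15. Against the shLuc cultures, which held Gabra2 at 242 CPM at the median, Gabra2 was lower in nuclei, at a log2 difference of -2.56. Slc12a5, the chloride extruder KCC2, was at 401, 379, 407 and 239 CPM in nuclei and 64.3 to 103 with a median of 80.1 CPM in cultures (log2 difference 2.11, adjusted p 1.5e-07). Slc12a2, the importer NKCC1, was at 32.1, 5.07, 23.8 and 21.2 CPM in nuclei and 6.94 to 28.6 with a median of 12.5 CPM in cultures, and the groups overlapped.

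Voltage-gated channels were mostly higher in nuclei. Of 35 potassium and HCN channel genes, 22 were higher in nuclei, 3 were higher in cultures (1 with edgeR) and 10 did not pass, with a median log2 difference of 1.30. Kcnj6, the G-protein-gated channel GIRK2, was at 67.3, 121, 125 and 169 CPM in nuclei. The cultures held 1.9 at the lowest, 9.79 at the median and 19.3 at the highest, without overlap (log2 difference 3.74 ± 0.48, SE; adjusted p 5.3e-06). Kcnt1, Kcna2 and Kcnip2, a sodium-activated channel, an axonal channel and an A-type channel partner, were higher in nuclei by 2.26, 2.10 and 2.05. Calcium channel genes gave 10 higher in nuclei and 0 higher in cultures of 15 by limma (0 at an unadjusted p under 0.05, 0 with edgeR, 0 with DESeq2 and 0 with voom), with a median of 1.31. Cacna1h and Cacna1i, which carry T-type current, were at 147 to 309.8 and 60.8 to 89.4 CPM in nuclei against 15.2 to 62.2 and 8.24 to 26.6 CPM in cultures. Cacna1e, the R-type channel, was higher in nuclei by 2.19 (adjusted p 1.4e-07).

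Sodium channel genes split by member, with 6 (54.5%) higher in nuclei and 3 (27.3%) higher in cultures of 11. The shares over all genes were 23.6% and 25.8%. Scn3b, an auxiliary beta subunit, was at 526, 606, 596 and 543 CPM in nuclei and at 31.2 at the lowest, 59.4 at the median and 91.2 at the highest in cultures (log2 difference 3.33 ± 0.25, SE; adjusted p 1.3e-08). Scn8a, the adult channel Nav1.6 of the axon initial segment, was at 604, 669, 828 and 733 CPM in nuclei and 128 to 214 with a median of 183 CPM in cultures. Scn1a was higher in nuclei by 1.95, whereas Fgf12, an intracellular modulator of sodium channels, was lower, at a log2 difference of -2.22. Scn3a, the embryonic channel Nav1.3, was at 176, 208, 148 and 142 CPM in nuclei and 85.2 to 179.7 with a median of 112 CPM in cultures and did not pass (log2 difference 0.50). It passed with 4 other scalings and without culture 1 or 5, at 0.51 to 0.65, and against the shLuc cultures, at 2.20. The plot of single genes by library shows these genes beside those of growth and division.

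**Figure D2:**
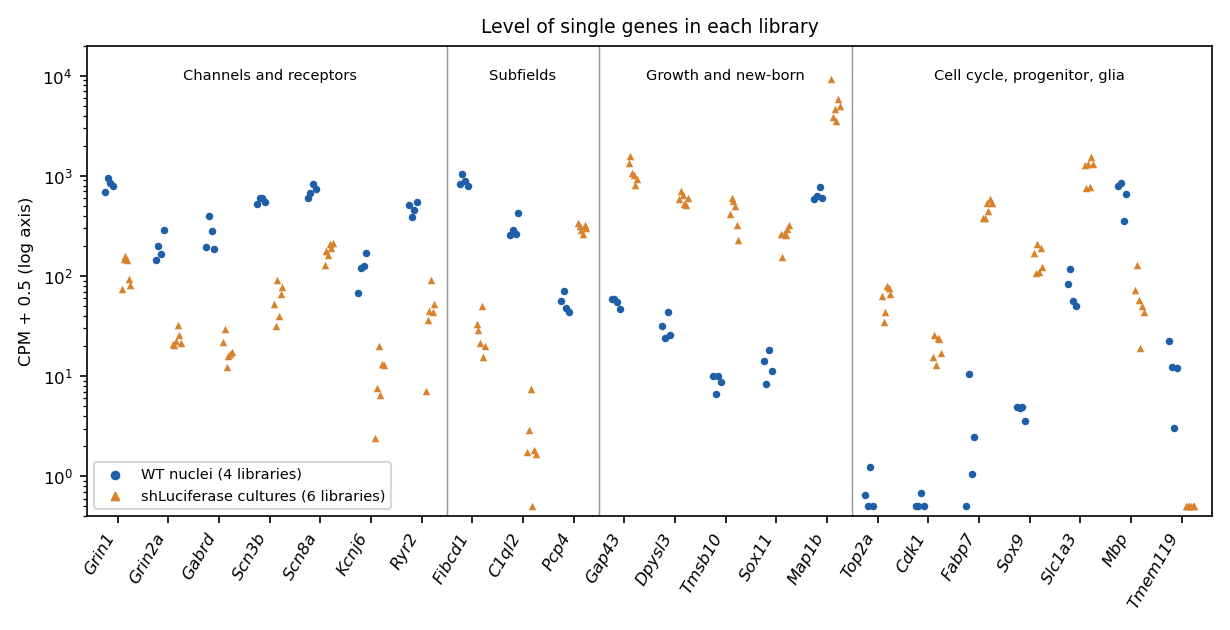
Level of 22 genes in each library (y axis, CPM + 0.5 on a log axis), with the 4 WT nuclei libraries as circles and the 6 shLuciferase cultures as triangles. The groups do not overlap in any of the genes drawn, with nuclei higher in the channel and receptor genes, Fibcd1, C1ql2, Mbp and Tmem119, and cultures higher in the others.

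Signalling and synaptic lists were mixed, where 23.6% of all genes were higher in nuclei and 25.8% in cultures. Of 37 genes of calcium and cyclic nucleotide signalling, 15 (40.5%) were higher in nuclei and 7 (18.9%) in cultures (median 0.29). These counts were 29 and 4 of 37 against the shLuc cultures (median 1.53). Ryr2, the calcium release channel of neurons, was at 515, 392, 459 and 546 CPM in nuclei and 6.65 to 89.9 with a median of 43.5 CPM in cultures (log2 difference 3.70 ± 0.46, SE; adjusted p 3.3e-06). The adenylyl cyclases Adcy2 and Adcy9 were higher in nuclei by 3.17 and 3.12. Camkk1 and Itpka, a kinase upstream of CaM kinases and an inositol phosphate kinase of spines, were higher in nuclei by 2.83 and 2.68. Camk4, a nuclear calcium-dependent kinase, was the 1 gene of this list past the 2-fold test with cultures higher, at 155 to 292 with a median of 239 CPM against 91.2, 53.6, 104 and 40.2 CPM in nuclei. Of 35 postsynaptic scaffold and spine genes, 13 (37.1%) were higher in nuclei and 8 (22.9%) in cultures. The list's median of 0.09 turned to -0.02 with edgeR. With the shLuc cultures in place, 24 of 35 were higher in nuclei and 2 in cultures (median 1.33). Icam5, the dendritic adhesion protein telencephalin, was at 1007, 1392, 1062 and 1014 CPM in nuclei and at 142 at the lowest, 211 at the median and 247 at the highest in cultures (log2 difference 2.47). Nlgn1 and Lrrtm1, postsynaptic partners of neurexins, were higher in nuclei by 1.90 and 1.83, and Nlgn3 by 1.97. Against the shLuc cultures, which held Nlgn3 at 339.9 CPM at the median, its difference was -0.20. Ppp1r9b, the spine scaffold spinophilin, was lower in nuclei, at a log2 difference of -2.01.

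Genes of the presynaptic vesicle cycle differed in both directions. Of 39 tested, 9 (23.1%) were higher in nuclei and 12 (30.8%) in cultures, close to the 23.6% and 25.8% over all genes (median -0.17). Vamp2, the vesicle SNARE of fast release, was at 148, 122, 126 and 97.1 CPM in nuclei. In cultures it was at 991 at the lowest, 1101 at the median and 1316 at the highest, a log2 difference of -3.19 ± 0.15 (SE; adjusted p 1.2e-10). Vamp1, its close relative, was higher in nuclei at 211, 234, 219 and 231 CPM against 43.1 to 92.1 with a median of 61.1 CPM in cultures, and it overlaps Tapbpl and Cd27 on the other strand. Snap25, the plasma membrane SNARE, was at 921, 465, 510.3 and 335 CPM in nuclei and 1371 to 2138 with a median of 1652 CPM in cultures (log2 difference -1.68). Cplx1, Rab3c and Rab3b, a complexin and vesicle GTPases, were lower in nuclei, at log2 differences of -2.05, -1.82 and -1.74. The median of the list turned to 0.85 against the shLuc cultures, with 23 of 40 genes higher in nuclei and 12 higher in cultures.

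Adhesion and guidance genes were higher in nuclei more often than in cultures. Of 36 neurexin, latrophilin, teneurin and IgLON genes, 19 were higher in nuclei and 4 in cultures (median 0.86). Csmd1 and Csmd3, very large transmembrane proteins, were at 471, 448, 417 and 536 and 246, 261, 195 and 188 CPM in nuclei, against 43 to 79.7 and 17.8 to 55.2 CPM in cultures. Of 47 axon guidance genes, 23 were higher in nuclei and 8 in cultures (median 0.83). Slit3 was at 223, 261, 213 and 230.4 CPM in nuclei and 9.34 to 18.2 with a median of 15.6 CPM in cultures, and Slit1 at 437, 508, 503 and 583 and 25.5 to 81.8 with a median of 42.6 CPM. Both encode secreted ligands of Robo receptors and had log2 differences of 4.02 and 3.52. Epha4, an ephrin receptor of hippocampal dendrites, was at 1062, 967, 678 and 747 CPM in nuclei and at 56.2 at the lowest, 87.6 at the median and 141 at the highest in cultures (log2 difference 3.32 ± 0.24, SE; adjusted p 7.2e-09). Sema7a was higher in nuclei by 4.12, whereas Ntn1, Efna5 and Sema6a, guidance ligands, were lower, at log2 differences of -3.30, -2.73 and -2.16.

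The clustered protocadherins, which give neurons surface identities, divided within a cluster. Of 57 genes, 17 were higher in nuclei and 5 in cultures, or 8 in cultures without culture 4 or with voom (median 0.46). Pcdhgc5, the last exon choice of the gamma cluster, was at 598, 839, 711 and 627 CPM in nuclei and at 91.5 at the lowest, 125 at the median and 144 at the highest in cultures (log2 difference 2.53 ± 0.17, SE; adjusted p 4.1e-09). Its neighbours Pcdhgc3 and Pcdhgc4 went the other way, at 6.04, 1.35, 5.86 and 5.83 and 7.51, 11.6, 35.9 and 26.8 CPM in nuclei. The cultures held Pcdhgc3 at 13.2 to 145 with a median of 99.7 CPM and Pcdhgc4 at 58.2 to 164 with a median of 126 CPM, log2 differences of -4.06 and -2.72. The isoforms of this cluster share their last exons, so the split of reads between them depends on the authors' counting and is uncertain.

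Ratios of paired genes were computed within each library, as the log2 ratio of levels per kilobase of transcript, since such a ratio does not depend on how libraries were scaled. The 16 pairs set a member associated with mature neurons, or with neurons in general, over an early or alternative one. They are given as a description. In 9 pairs every nuclei library stood above every culture, in 1 pair every nuclei library stood below, and 6 pairs overlapped. The ratio of Nrgn to Gap43, a postsynaptic calmodulin-binding protein over the growth-cone protein, was -1.32, -1.56, -1.40 and -1.08 in nuclei and -6.25 to -4.51 with a median of -5.18 in cultures. The difference was 3.84, and Nrgn itself was at 23.7, 19.96, 20.7 and 22.1 CPM in nuclei and 17.4 to 48.3 with a median of 33 CPM in cultures. The ratio of Ezh1 to Ezh2, the histone H3K27 methyltransferases of resting and dividing cells, was 3.59, 5.09, 5.22 and 6.02 in nuclei and 0.83 to 1.83 with a median of 1.34 in cultures. Both genes moved, Ezh1 being higher in nuclei by 1.45 and Ezh2 lower, at a log2 difference of -2.20 (adjusted p 7.6e-05 and 0.0021). Grin2a over Grin2b was at -0.59, -0.03, -0.76 and 0.00 in nuclei and -3.34 to -2.64 with a median of -2.93 in cultures, a 6.13-fold difference of the ratio. Rbfox3, the antigen NeuN, over the migration gene Dcx was at 3.44, 4.24, 3.68 and 4.68 in nuclei and 0.15 to 2.71 with a median of 1.71 in cultures. Dcx was at 48, 24.7, 34.1 and 21.3 CPM in nuclei and 59.7 to 218 with a median of 147 CPM in cultures, without overlap.

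**Figure D3:**
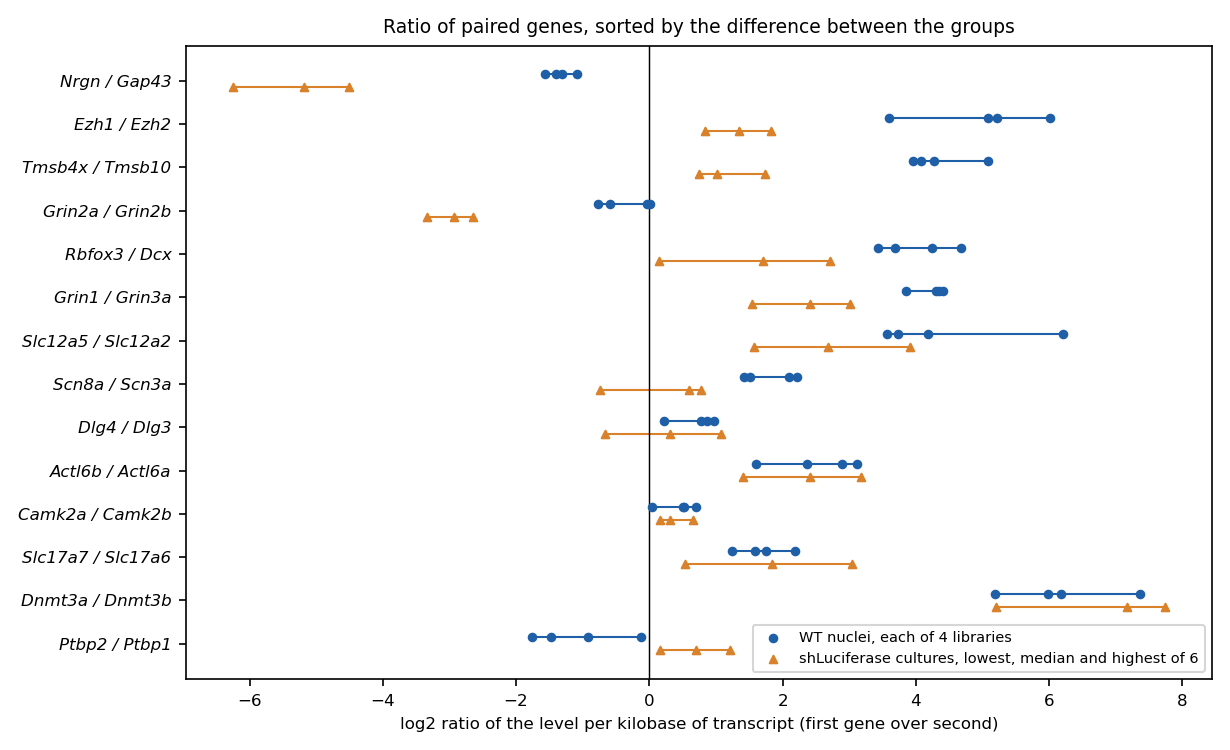
Log2 ratio of levels per kilobase (x axis) for 14 of the 16 gene pairs, with each of the 4 WT nuclei libraries as circles and the lowest, median and highest of the 6 shLuciferase cultures as triangles. In 7 rows, led by Nrgn over Gap43, the points show the nuclei wholly to the right of the cultures, and the lowest row, Ptbp2 over Ptbp1, shows them wholly to the left.

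Grin1 over Grin3a differed by 1.93 on the log2 scale, and Scn8a over Scn3a by 1.49. The thymosins Tmsb4x over Tmsb10 differed by 3.21, although Tmsb4x itself was lower in nuclei, at a log2 difference of -2.35. Slc12a5 over Slc12a2 was at 3.73, 6.20, 4.18 and 3.57 in nuclei and 1.57 to 3.92 with a median of 2.68 in cultures, and the groups overlapped. Ptbp2 over Ptbp1, the neuronal over the general splicing repressor, was the pair with every nuclei library below every culture. Its ratio was at -0.12, -0.92, -1.47 and -1.76 in nuclei and 0.15 to 1.22 with a median of 0.69 in cultures. In the shLuc cultures this ratio was at -2.31 to -0.18 with a median of -0.86, and it overlapped the nuclei. Ptbp2 was higher in cultures (log2 difference -1.02, adjusted p 0.0028), but its difference from the shLuc cultures was 0.46. Ptbp1 was higher in nuclei by 0.73 (adjusted p 0.02), a call lost without nuclei library 2, 5 or 6, at 0.62 to 0.64. The ratios Camk2a over Camk2b, Actl6b over Actl6a, Dnmt3a over Dnmt3b, Slc17a7 over Slc17a6 and Dlg4 over Dlg3 overlapped, with differences of 0.07, 0.14, -0.55, -0.11 and 0.51. In the shLuc cultures Slc17a7 over Slc17a6 was at -1.94 to -0.66, below the nuclei at 1.24 to 2.19. Dlg4 over Dlg3 was there at 2.75 to 3.73, above the nuclei at 0.22 to 0.96. The ratios of Camk2a, Actl6b and Dnmt3a overlapped the nuclei there too. Both vesicular glutamate transporters were higher in nuclei, Slc17a7 by 1.39 and Slc17a6 by 1.50.

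The labels name both groups as neurons, so the markers of other cells were examined beside them. Neuronal genes were present in both: Rbfox3 was at 182, 165, 154 and 193 CPM in nuclei and 83 to 173 with a median of 117 CPM in cultures. Camk2a, the alpha subunit of CaM kinase II of excitatory neurons, was at 1455, 2034, 1362 and 1527 CPM in nuclei and 987 to 1685 with a median of 1208 CPM in cultures. Its difference did not pass (log2 0.37, adjusted p 0.097), but passed with voom (0.46), without culture 1 (0.49) and against the shLuc cultures (0.61). Rbfox3 was higher in nuclei by 0.53 (adjusted p 0.047). This call was lost without any 1 of the nuclei libraries or without culture 1, 2, 5 or 6, at differences of 0.44 to 0.59, and with edgeR and DESeq2. Markers of progenitors and glia were also found in the cultures, and their part in the other results was not tested.

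Of 27 genes of neural progenitors and radial glia, 19 were higher in cultures, 1 was higher in nuclei and 7 did not pass (median -2.57). Their summed level was 325 to 546 CPM in nuclei and 2835 to 4075 CPM in cultures. Fabp7, the fatty-acid-binding protein of radial glia (chromosome 10, 57784881 to 57788450), was at 0, 9.92, 0.55 and 1.99 CPM in nuclei and at 377 at the lowest, 493 at the median and 592 at the highest in cultures. Its log2 difference of -7.94 ± 0.54 (SE; adjusted p 4.6e-09) had the largest size of all genes tested with 50 CPM or more in either group. The intermediate filaments Nes and Vim were at 0 to 0.733 and 3.11 to 6.5 CPM in nuclei, against 16.2 to 63.6 and 67.2 to 142 CPM in cultures. Sox9 and Sox2, stem-cell factors, were lower in nuclei, at log2 differences of -5.02 and -3.64, and Ddah1 and Ednrb also, at -4.53 and -4.46.

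Of 29 astrocyte genes, 16 were higher in cultures and 4 in nuclei, and the list summed to 3023 to 5291 CPM in nuclei and 7033 to 12914 CPM in cultures. Slc1a3, the glutamate transporter GLAST, was at 82.2, 117, 56.3 and 50.2 CPM in nuclei and at 753 at the lowest, 1297 at the median and 1528 at the highest in cultures (log2 difference -3.95 ± 0.25, SE; adjusted p 1.6e-09). Aqp4, Aldh1l1, Gja1 and Hepacam, further astrocyte genes, were lower in nuclei, at log2 differences of -2.98, -2.49, -3.60 and -4.47. Gjb6, Gpr37l1 and Ntsr2 were higher in nuclei, at 3.48 to 14.8, 26.6 to 102 and 81 to 156 CPM against 0 to 3.8, 3.26 to 13.2 and 25.5 to 39.4 CPM in cultures. Gfap, the astrocytic filament, was lower in nuclei, at a log2 difference of -1.38 against the shLuciferase cultures and higher by 1.16 against the shLuc cultures.

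Genes of the oligodendrocyte lineage differed in both directions. Of 25 tested, 12 (48%) were higher in nuclei and 7 (28%) in cultures, against 23.6% and 25.8% over all genes (median 1.23). The list summed to 940.1 to 1828 CPM in nuclei and 653 to 1060.0 CPM in cultures. Among those higher in nuclei, Mag, a myelin adhesion protein, was at 48.7, 72, 34.4 and 37.3 CPM in nuclei and 0 to 3.59 with a median of 0.661 CPM in cultures, and Mbp, the main cytoplasmic myelin protein, at 794, 844, 349.8 and 652 and 18.5 to 129 with a median of 53.8 CPM. Mobp and Mog were higher in nuclei by 5.12 and 5.03. Opalin had 0 reads in the 6 cultures and 2.39 to 20.1 CPM in nuclei, 233-fold more against a nominal floor of 3 counts over the cultures. Among those higher in cultures, Pdgfra, a growth factor receptor of precursor cells, was at 7.66, 0.902, 6.6 and 3.71 CPM in nuclei and at 59.2 at the lowest, 159 at the median and 198 at the highest in cultures. Olig1, Olig2, Sox10 and Lhfpl3 were lower in nuclei, at log2 differences of -4.15, -3.71, -2.80 and -2.65. The shLuc cultures held Pdgfra at 6.77 CPM and Olig1 at 422 CPM at the median.

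Microglia genes were low in both groups. The 22 genes of the list summed to 93.1 to 213 CPM in nuclei and 23.8 to 57.3 CPM in cultures. Tmem119 and Ctss had 0 reads in all 6 cultures, and in nuclei they were at 21.9, 11.7, 2.57 and 11.5 and 9.43, 13.2, 8.25 and 14.6 CPM. Their nuclei means were 314-fold and 298-fold above a nominal floor of 3 counts over the cultures. The defining markers Aif1 and P2ry12 were too low to be tested, at 0.451 to 2.65 and 0.589 to 6.1 CPM in nuclei. The filter on low values asked for 1 CPM in 4 libraries, and there were 4 nuclei libraries, so a gene at 0 in the cultures was tested only if all 4 nuclei libraries held it. This was so for 4 of the 12 genes tested of 22 listed, and the other 10 were left out, so the counts that follow do not support a direction of the list. Higher in nuclei were 11 and higher in cultures 0 by limma (0 at an unadjusted p under 0.05, 0 with edgeR, 0 with DESeq2 and 0 with voom). The median was 3.40, or 4.03 with the 4 genes at 0 set to the nominal floor. With no filter, 15 of the 22 were higher in nuclei (median 2.21). Without nuclei library 1, 2 or 6 there were 3 of 5 genes tested, without nuclei library 5 there were 5 of 6, and with a filter of 5 CPM 4 of 5. Over all settings but the shLuc cultures the median lay between 2.12 and 5.92. In the vascular, fibroblast and meningeal list, 3 of 20 genes (15%) were higher in nuclei and 4 (20%) in cultures. Both shares were below the 23.6% and 25.8% over all genes. The count higher in nuclei was 5 to 6 without nuclei library 2 or culture 4, with no filter, with DESeq2 and with voom. The endothelial markers Pecam1 and Cdh5 were at 0 to 4.95 CPM and at 0 in nuclei. Choroid plexus and ependyma genes summed to 175 to 856 CPM in nuclei and 39.7 to 121 CPM in cultures. Ttr, the transthyretin of choroid plexus, was at 40.5, 41.7, 16.1 and 588 CPM in nuclei, with nuclei library 6 far above the other 3. The haemoglobin gene Hbb-bs had 0 reads in the 10 libraries.

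**Figure D4:**
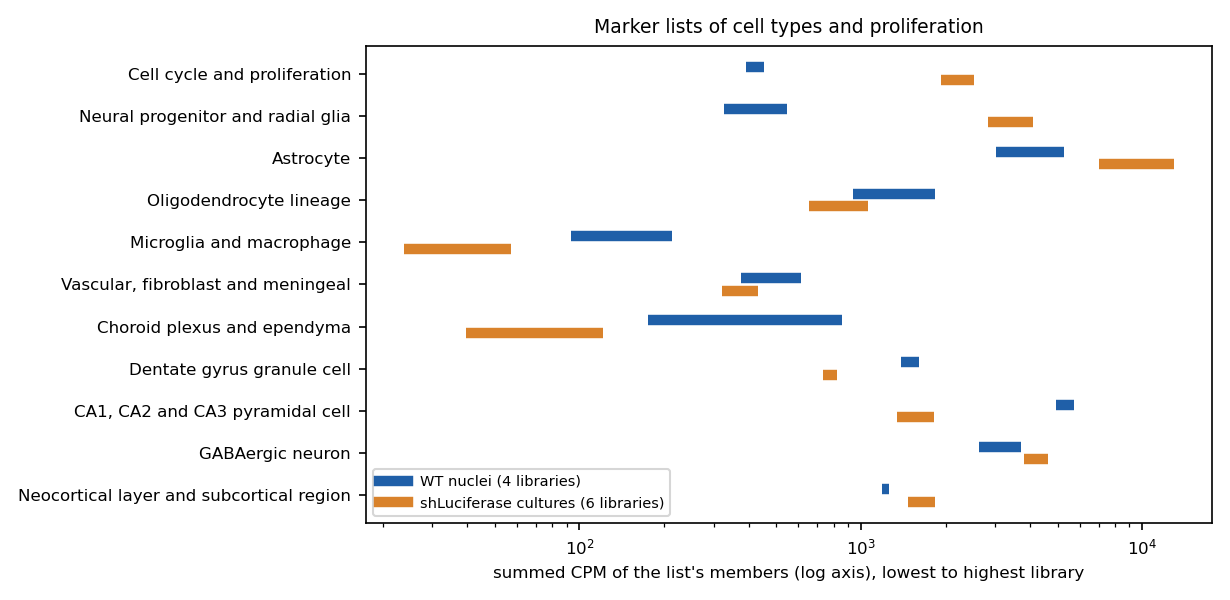
Summed level of each marker list (x axis, CPM on a log axis), from the lowest to the highest library of the 4 WT nuclei and of the 6 shLuciferase cultures. Cell cycle, progenitor, astrocyte, GABAergic and neocortical sums lie higher in the cultures without overlap, and microglia, choroid plexus, dentate and pyramidal sums lie higher in the nuclei without overlap.

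Genes of hippocampal subfields were higher in nuclei more often than in cultures. The brain region of the cultures was not given and age followed the group, so this comparison cannot check the tissue label. Of 21 dentate granule cell genes, 14 were higher in nuclei and 4 in cultures (median 1.57). C1ql2, a synaptic organiser secreted at mossy fibre terminals (chromosome 1, 120340582 to 120343174), was at 254, 289.5, 263 and 428 CPM in nuclei. In cultures it was at 0 at the lowest, 1.3 at the median and 6.93 at the highest, and the log2 difference was 7.26 ± 0.56 (SE; adjusted p 1.6e-08), the largest in this direction among genes with 50 CPM or more. Plk5, Trpc6 and Dsp were higher in nuclei by 5.63, 4.83 and 3.63. Lct was at 2.8, 103, 27.1 and 28.2 CPM in nuclei, with library 1 far below the others. Prox1, the factor that fixes granule cell identity, was at 7.07, 15.6, 24.2 and 16.4 CPM in nuclei and 1.21 to 10.1 with a median of 6.08 CPM in cultures (log2 difference 1.57, adjusted p 0.034), a call lost with edgeR and without nuclei library 2, 5 or 6 or culture 2, 4 or 6, at 1.21 to 1.59. Marcksl1 was the 1 gene of the list past the 2-fold test with cultures higher.

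Of 26 pyramidal cell genes of CA1 to CA3, 15 were higher in nuclei and 2 in cultures (median 1.25). Fibcd1, a CA1 marker (chromosome 2, 31813290 to 31846005), was at 836, 1049, 892 and 795 CPM in nuclei and at 14.9 at the lowest, 24.6 at the median and 49.6 at the highest in cultures, without overlap (log2 difference 5.09 ± 0.26, SE; adjusted p 2.5e-10). Nptx1, a secreted pentraxin that clusters AMPA receptors, was at 1447, 2110.0, 1523 and 1556 CPM in nuclei and 105 to 215 with a median of 184 CPM in cultures, and Cpne7 at 731, 677, 833 and 1331 and 59.7 to 219 with a median of 106 CPM. Pcp4, a calmodulin-binding protein of CA2 and other neurons, went the other way at 56, 70.1, 46.9 and 43.5 CPM in nuclei and 261 to 339.7 with a median of 309 CPM in cultures. Wfs1 was higher in nuclei by 0.69.

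Markers of other regions and of GABAergic neurons were higher in cultures more often than in nuclei. Of 27 genes of neocortical layers and subcortical regions, 4 were higher in nuclei and 12 in cultures (median -0.49). Tcf7l2, a factor of thalamus and of some glia, was at 1.33, 2.71, 0.366 and 0 CPM in nuclei and at 44.4 at the lowest, 52.9 at the median and 84.7 at the highest in cultures. Calb2, the calcium buffer calretinin, and Adora2a, a receptor of striatal neurons, were lower in nuclei, at log2 differences of -4.76 and -3.86, and Crym and Lamp5 were higher by 1.84 and 2.35. Of 36 GABAergic genes, 8 (22.2%) were higher in nuclei and 15 (41.7%) in cultures, against 23.6% and 25.8% over all genes (median -0.56). Gad2 and Gad1, which make GABA, were at 100.3, 56, 60.8 and 90.02 and 331, 240.04, 174 and 195 CPM in nuclei. The cultures held Gad2 at 250.3 to 393 with a median of 301 CPM and Gad1 at 478 to 965 with a median of 743 CPM, so neither overlapped. The interneuron factors Sox6, Lhx6 and Dlx1 were lower in nuclei, at log2 differences of -4.55, -3.77 and -3.25, whereas Htr3a and Npas1 were higher by 2.47 and 2.99. Slc32a1, the vesicular GABA transporter, did not pass, at -0.54.

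Activity-regulated genes were higher in cultures more often than in nuclei. Of 37 tested, 13 were higher in cultures, 4 were higher in nuclei and 20 did not pass (median -0.74). The 4 became 1 without nuclei library 2 or 6 or culture 2 or 6, and 2 with no filter. Fos, a subunit of the AP-1 factor, was at 12.4, 23.6, 26.6 and 14.2 CPM in nuclei and at 65 at the lowest, 87.9 at the median and 107 at the highest in cultures (log2 difference -2.19 ± 0.27, SE; adjusted p 4e-06). Egr2 and Atf3 were at 0.564 to 4.58 and 0 to 1.47 CPM in nuclei against 7.15 to 49.1 and 6.69 to 24.8 CPM in cultures. Ptgs2, the inducible cyclooxygenase, went the other way at 48.9, 86.6, 38.5 and 68.5 CPM in nuclei and 1.65 to 18.1 with a median of 7.08 CPM in cultures. The median of this list was 0.07 against the shLuc cultures, with 13 genes higher in nuclei and 9 higher in cultures of 35. Neuropeptide and granin genes gave 8 (25.8%) higher in nuclei and 7 (22.6%) higher in cultures of 31, near the 23.6% and 25.8% over all genes. Their log2 differences were 1.68 for Pcsk2, -2.80 for Cort and -1.90 for Tac1. Pcsk2 overlaps Pcsk2os1 and Pcsk2os2 on the other strand.

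Genes of the extracellular matrix around neurons were divided by member. Hapln4, the link protein of adult perineuronal nets, was at 189, 289.9, 182 and 227 CPM in nuclei and at 0 at the lowest, 2.11 at the median and 8.45 at the highest in cultures (log2 difference 6.54 ± 0.59, SE; adjusted p 9.1e-08). Tnr, tenascin-R, was higher in nuclei by 2.10, and the hyaluronan synthase gene Has1 by 4.85. Hapln1 and Tnc, the link protein and tenascin of younger matrix, were at 15, 4.4, 3.85 and 11.8 and 1.18, 0, 4.58 and 0.795 CPM in nuclei. The cultures held Hapln1 at 25.5 to 82.1 with a median of 72.2 CPM and Tnc at 9.97 to 56.1 with a median of 39.4 CPM. Acan, Ncan and Ptprz1, chondroitin sulfate proteoglycans, were lower in nuclei, at log2 differences of -3.01, -1.77 and -3.04. Over the 17 genes tested, 3 (17.6%) were higher in nuclei and 6 (35.3%) in cultures, against 23.6% and 25.8% over all genes.

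Genes of protein synthesis and respiration were mostly lower in nuclei. Of 79 cytosolic ribosomal protein genes, 57 were higher in cultures and 4 in nuclei (median -0.88). Rpl29 was at 11, 17.1, 15.6 and 9.94 CPM in nuclei and at 144 at the lowest, 183 at the median and 232 at the highest in cultures (log2 difference -3.77), and Rpl35 and Rps29 were lower, at log2 differences of -2.41 and -2.50. Among the exceptions were Rps2, Rpsa and Rpl3, named after their values were seen and higher in nuclei by 1.35, 0.92 and 0.77. Against the shLuc cultures these 3 were lower in nuclei as well, at log2 differences of -2.26, -2.63 and -1.67. Ribosomal protein genes have many processed copies, so these values depend on how the counting shared reads. Of 74 nuclear-encoded respiratory chain genes, 63 were higher in cultures and 3 in nuclei (median -1.41). Atp5e, the epsilon subunit of ATP synthase, was at 3.09, 4.28, 2.93 and 2.52 CPM in nuclei and at 91.5 at the lowest, 132 at the median and 169 at the highest in cultures (log2 difference -5.12 ± 0.29, SE; adjusted p 6.1e-10). Cox7c and Ndufs5, small subunits of complexes IV and I, were lower in nuclei, at log2 differences of -2.52 and -2.57. Proteasome genes gave 20 higher in cultures and 1 higher in nuclei of 31 (median -0.78), and the ATPase subunits Psmc1 and Psmc6 had log2 differences of -1.99 and -1.82. Against the shLuc cultures the medians were -2.57, -2.17 and -1.75 for these 3 lists, further below 0 than against the shLuciferase cultures.

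Length and base composition of the transcript moved with the difference, and their part in the lists was not tested. Tested genes were divided into 5 equal sets. In the set with the shortest transcripts the median log2 difference was -0.38, with 17.1% of genes higher in nuclei and 35.8% higher in cultures. In the set with the longest transcripts it was 0.21, with 29.3% and 19.2%. From the lowest to the highest set by GC content the median went from -0.30 to 0.35. Spearman's rho across 13320 genes was 0.12 for transcript length, 0.16 for GC content, 0.03 for gene span and 0.06 for the number of exons, as a description over genes that share the libraries. The median transcript length was 906 bases in the ribosomal protein list, 908 in the respiratory chain list and 3248 in the cell cycle list, against 5215 in the potassium channel list.

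**Figure D5:**
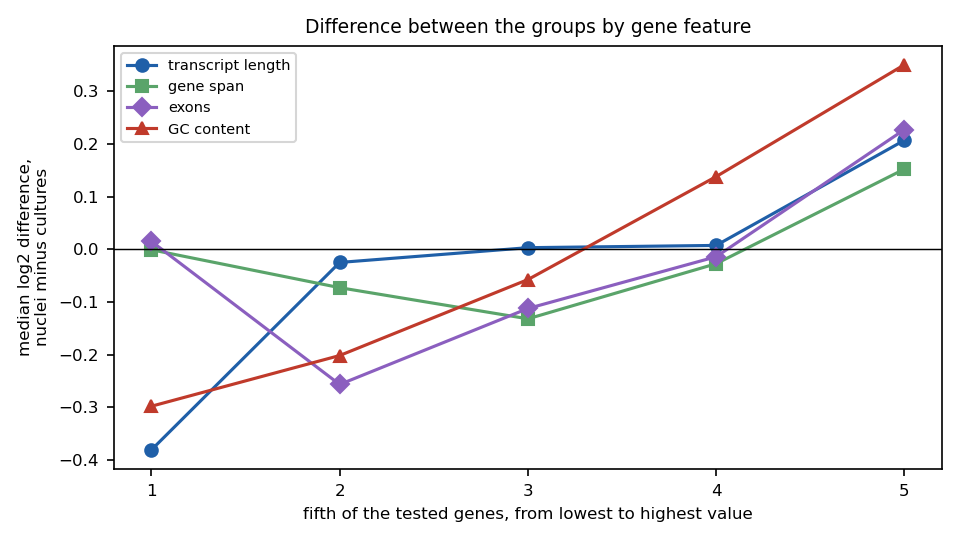
Median log2 difference, nuclei minus cultures (y axis), in each of 5 equal sets of the tested genes ordered by transcript length, gene span, number of exons or GC content (x axis). The medians run from -0.38 in the shortest transcripts to 0.35 at the highest GC content.

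Metabolic and stress genes were in part lower in nuclei. Of 29 genes of cholesterol synthesis and SREBP targets, 14 were higher in cultures and 3 in nuclei, or 5 without culture 1 (median -0.64). The list summed to 2342 to 2846 CPM in nuclei and 4079 to 7755 CPM in cultures, of which culture 1 held the highest and the other 5 between 4079 and 4955 CPM. Hmgcs1, which makes the precursor of mevalonate, was at 69.1, 98.1, 41.8 and 36.7 CPM in nuclei and at 525 at the lowest, 653 at the median and 1514 at the highest in cultures (log2 difference -3.65 ± 0.29, SE; adjusted p 2.2e-08), and Idi1 was lower in nuclei, at a log2 difference of -3.07. Of 29 glutathione and antioxidant genes, 19 were higher in cultures and 0 in nuclei by limma (0 at an unadjusted p under 0.05, 0 with edgeR, 0 with DESeq2 and 0 with voom), with a median of -1.17. Gstm1, a glutathione transferase, was at 132, 155, 60.3 and 88.7 CPM in nuclei and 611 to 1177 with a median of 820.5 CPM in cultures. Hmox1 and Txn1 were lower in nuclei, at log2 differences of -3.45 and -2.92. The integrated stress and unfolded protein list gave 15 genes (40.5%) higher in cultures and 9 (24.3%) higher in nuclei of 37. Over all genes the shares were 25.8% and 23.6%, so the count higher in nuclei was near that of all genes. Its members Eif4ebp1, Sesn2, Mthfd2 and Ddit3, known as targets of the factor Atf4, were lower in nuclei, at log2 differences of -3.31, -2.66, -2.82 and -1.76. Xbp1 and Creld2, of the unfolded protein response in the endoplasmic reticulum, were higher in nuclei by 1.60 and 1.94. Glycolysis genes gave 4 (16.7%) higher in nuclei and 8 (33.3%) higher in cultures of 24, with Ldhb lower in nuclei, at a log2 difference of -1.70.

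Long noncoding RNAs, among them several known to stay in the nucleus, were not uniformly higher in nuclei. Of 22 tested, 10 were higher in nuclei, 4 were higher in cultures and 8 did not pass (median 0.57). With the shLuc cultures in place, 15 of 21 were higher in nuclei and 2 in cultures (median 2.22). Malat1, a transcript of nuclear speckles, was at 5516, 4256, 4879.8 and 5268 CPM in nuclei and at 1343 at the lowest, 5652 at the median and 14757 at the highest in cultures, and the groups overlapped with a log2 difference of -0.03 (adjusted p 0.97). The sign of that value turned under other scalings (0.04 with DESeq2's size factors), and against the shLuc cultures, which held Malat1 at 208 to 547 CPM, it was 3.54. Miat was at 361, 494, 862 and 629 CPM in nuclei and 15.5 to 135 with a median of 73.3 CPM in cultures (log2 difference 3.10). Snhg11, a host transcript of neurons, was at 4832, 4003, 6509 and 6096 CPM in nuclei and 453 to 2619 with a median of 1179.7 CPM in cultures (log2 difference 2.15, adjusted p 3.9e-05). From the imprinted Dlk1-Meg3 region, Rian and Mirg were higher in nuclei by 2.96 and 3.01, and Meg3 by 1.05 (adjusted p 0.036), a call lost with edgeR and DESeq2, and without nuclei library 1, 5 or 6 or culture 1, 2, 3 or 5, at 0.77 to 1.08. Sox2ot and Dlx6os1 were lower in nuclei, at log2 differences of -2.70 and -1.94. By annotated biotype, 39 of 139 antisense genes (28.1%) were higher in nuclei and 10 (7.19%) in cultures, with a median of 0.85, and 3027 of 12810 protein-coding genes (23.6%) and 3396 (26.5%), with a median of -0.04. Antisense genes overlap a gene on the other strand, and these values are uncertain where the counting did not use strand.

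Chromatin regulators differed by member. Tet2, the enzyme the study is about, was at 130.2, 118, 123 and 140.4 CPM in nuclei and at 22.1 at the lowest, 61.3 at the median and 98.3 at the highest in cultures, and it was higher in nuclei by 1.18 ± 0.31 (SE; adjusted p 0.004). Tet1 was at 13.3, 22, 37.4 and 28.2 CPM in nuclei and 35.1 to 99.2 with a median of 66.6 CPM in cultures, lower in nuclei, at a log2 difference of -1.39 (adjusted p 0.0022), and Tet3 did not pass (log2 difference 0.35, adjusted p 0.22; it passed against the shLuc cultures, at 1.47). Dnmt3a, a de novo DNA methyltransferase of postnatal neurons, was at 153, 184, 252 and 257 CPM in nuclei and at 433 at the lowest, 487 at the median and 515 at the highest in cultures (log2 difference -1.22). Dnmt3a overlaps Dnmt3aos and Tet3 overlaps B230319C09Rik on the other strand. Over 27 genes of DNA methylation, 6 (22.2%) were higher in nuclei and 7 (25.9%) in cultures, close to the 23.6% and 25.8% over all genes. The list's median of -0.47 turned to 0.82 against the shLuc cultures and to 0.01 with a filter of 5 CPM. Of 21 BAF remodelling subunits, 10 were higher in cultures and 1 in nuclei, and Actl6b, the subunit of neurons, was lower in nuclei, at a log2 difference of -0.80. Of 49 histone modifiers and linker histones, 14 (28.6%) were higher in nuclei and 16 (32.7%) in cultures, and the 14 became 8 to 9 without nuclei library 1 or 6 or culture 2. Kmt2a, an H3K4 methyltransferase, was at 674, 457, 569 and 629.9 CPM in nuclei and 141 to 280.01 with a median of 161 CPM in cultures, and H3f3b, a gene of the replacement histone H3.3, was lower in nuclei, at a log2 difference of -2.71. The splicing regulators Celf4 and Srsf5 were lower in nuclei, at log2 differences of -2.40 and -2.17. Their list had 10 of 42 genes (23.8%) higher in nuclei and 14 (33.3%) in cultures, against 23.6% and 25.8% over all genes. The count higher in nuclei was 5 to 6 without nuclei library 1, 2 or 6. The medians of the histone and splicing lists, -0.42 and -0.21, turned to 0.31 and 0.30 against the shLuc cultures.

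Clock genes were higher in nuclei in 11 of 19 cases and higher in cultures in 3 (median 0.76), with 7 higher in nuclei without nuclei library 2 or 6. Per3, a period gene, was at 189, 154, 192 and 261 CPM in nuclei and at 25.3 at the lowest, 42.2 at the median and 81 at the highest in cultures, and the output factor Tef was higher in nuclei by 1.49. The 3 clock genes higher in cultures were Rorb, Cry1 and Arntl, the last pair named after their values were seen, at -1.69 and -0.74. The call of Arntl was lost without nuclei library 1 or 5 or culture 1, 2, 5 or 6, at -0.74 to -0.64. Of 21 genes regulated by or encoding receptors of glucocorticoids and thyroid hormone, 8 (38.1%) were higher in nuclei and 4 (19.0%) in cultures. Nr3c2, the mineralocorticoid receptor of hippocampal neurons, was at 74.1, 71.8, 100.04 and 91 CPM in nuclei and 0.992 to 20.04 with a median of 7.65 CPM in cultures (log2 difference 3.64). Cdkn1a, the cell cycle inhibitor p21, was at 6.48, 2.71, 4.21 and 3.05 CPM in nuclei and at 186 at the lowest, 227 at the median and 481 at the highest in cultures (log2 difference -5.86 ± 0.29, SE; adjusted p 1.7e-10). Dio2, the deiodinase that activates thyroid hormone in glia, was lower in nuclei, at a log2 difference of -3.26. Fetal growth genes gave 2 higher in nuclei and 10 higher in cultures of 20, with Hmgn2 and Hmgb3, chromatin proteins, lower in nuclei, at log2 differences of -3.71 and -4.68. Ndn, an imprinted gene of neurons, was higher in nuclei by 1.70 against the shLuciferase cultures and lower, at a log2 difference of -0.97 against the shLuc cultures. Interferon and antigen presentation genes gave 5 (23.8%) higher in nuclei and 2 (9.52%) higher in cultures of 21 tested, against 23.6% and 25.8% over all genes. The 5 became 3 without nuclei library 2 or culture 3, 5 or 6. With no filter the counts were 4 and 4 of 40.

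Among the largest differences over all genes were, apart from Slco1c1, genes outside these lists. Lefty1, a secreted inhibitor of Nodal signalling (chromosome 1, 180935022 to 180938400), was at 81.6, 47.5, 52.6 and 51.6 CPM in nuclei and had 0 reads in the 6 cultures. Its nuclei mean was 1531-fold above a nominal floor of 3 counts over the cultures. Chrd, the BMP antagonist chordin, was at 273, 576, 432 and 584 CPM in nuclei and 0.634 to 18.6 with a median of 4.64 CPM in cultures, and it overlaps Thpo on the other strand. Olfml2b was at 299, 349, 182 and 544 and 0.661 to 5.63 with a median of 2.93 CPM, Lgi3, a secreted protein of the LGI family, at 385, 462, 409.9 and 304 and 2.31 to 12.9 with a median of 8.35 CPM, and Car4, a membrane carbonic anhydrase, at 104, 165, 114 and 90.8 and 0 to 4.43 with a median of 1.36 CPM. Alpk1, Itga7, Efna1 and Pkp2 were higher in nuclei by 6.56, 6.05, 5.62 and 5.54. Mkrn3, an imprinted gene (chromosome 7, 62417593 to 62420139), had 0 reads in the 4 nuclei libraries and 41.7 to 82.4 CPM in cultures. The culture mean of Mkrn3 was 557-fold above a nominal floor of 3 counts over the nuclei. Mdk, the growth factor midkine, was at 2.06, 0.113, 0.366 and 2.92 CPM in nuclei and 34.5 to 72.2 with a median of 48.5 CPM in cultures. Slco1c1, a thyroid hormone transporter and a member of the astrocyte list, was at 3.09, 0, 0.183 and 3.05 CPM in nuclei. The cultures held it at 52.9 to 139 with a median of 104 CPM. Amd1 and Amd2, near-identical copies, moved in opposite directions by 6.79 and -5.65, so the sharing of reads between them was uncertain. With DESeq2 the difference of Amd2 was -3.23 and not called.

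Xist, the RNA that coats the inactive X chromosome of female cells, was at 0, 2.48, 6.6 and 4.11 CPM in nuclei and at 111 at the lowest, 179 at the median and 329 at the highest in cultures, and it overlaps Tsix. The Y-linked genes Ddx3y, Eif2s3y, Kdm5d and Uty were named after their values were seen. Ddx3y and Eif2s3y were at 32.1, 28.3, 19.1 and 15.2 and 40.6, 36.1, 37.6 and 29.7 CPM in nuclei. In cultures Ddx3y was at 11.7 to 39 with a median of 34.5 CPM and Eif2s3y at 14.6 to 71.1 with a median of 24.5 CPM. Kdm5d, a histone demethylase, was at 50.5, 62.5, 71.8 and 68 CPM in nuclei and 6.34 to 25.5 with a median of 15.1 CPM in cultures, without overlap (log2 difference 2.19 ± 0.38, SE; adjusted p 0.00013). Uty was at 3.45 to 30.05 CPM in nuclei and 0.201 to 16.5 CPM in cultures, and Ddx3y, Eif2s3y and Uty did not pass (log2 differences -0.30, 0.40 and 0.95). All 3 passed against the shLuc cultures, at 2.57, 2.48 and 2.81. All 4 nuclei libraries held reads of each Y-linked gene with Xist far below its level in the cultures, and all 6 cultures held Xist and each Y-linked gene. The part of sex in the other differences was not tested.

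The most abundant genes gave smaller differences. Among the 6 highest by CPM in nuclei were Meg3, Snhg11, Malat1, Psap and Ndrg4, and in cultures Malat1, Map1b, Tuba1a, Hspa8, Ubb and Meg3 were highest. Psap, a lysosomal protein precursor, was at 3959, 5061, 3771 and 3702 CPM in nuclei and 843 to 1468 with a median of 1109 CPM in cultures (log2 difference 1.90). Tuba1a, an alpha tubulin of growing neurons, was lower in nuclei, at a log2 difference of -1.32 and was at 17891 to 24412 CPM in the shLuc cultures. Within the groups, the genes of 20 CPM or more that varied most were often gene copies or overlapping genes. Rps27 and its copy Rps27rt were among the 8 most variable of the cultures, with SDs of log2 CPM of 2.57 and 3.61, where the median over tested genes was 0.51. In nuclei Adnp was at 88.5, 0, 0 and 0 CPM and Poll at 0, 12.4, 35.2 and 33.4 CPM, so that single libraries decided their means.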

How the data were processed

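RNA-seq libraries of 4 WT hippocampal nuclei samples and 6 shLuciferase cultures were compared. The authors deposited normalized counts per gene, a signal in which each library's raw counts are divided by a constant. The submitters' processing notes name STAR, RSEM, DESeq2 and mm10, without roles, and the versions, the annotation and the strand setting of counting are not given in the sources used here. Each column was divided by its smallest value above 0, and 100% of values came out as whole reads within a tolerance of 0.01 reads. The groups lie in separately normalized tables of 24411 genes, so these reads were joined by gene and rescaled together. Rn45s was left out, and CPM was computed with TMM factors (edgeR 4.0.16).

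Genes with at least 1 CPM in at least 4 libraries were tested on log2(CPM + 0.5) with limma 3.58.1 (limma-trend, R 4.3.3) over these 10 libraries, with Benjamini-Hochberg adjustment over all tested genes. The 2-fold test was limma's treat at a log2 fold of 1. The tests were tried on simulated data. Gene positions and transcript lengths came from GENCODE vM21 (mm10) for 23334 genes (95.59%). Named genes were those of the 16 pairs, up to 5 members per list and direction past the 2-fold test by size, the 15 largest per direction over all genes at 50 CPM or more, the 6 most abundant and 8 most variable per group, the first 5 markers of each cell type, and Tet1, Tet2 and Tet3; some of them are not reported here. Members and gene lists were chosen with earlier results of these data known. Alternatives changed the pseudocount, filter, scaling, test (edgeR, DESeq2 1.42.0 and voom on the recovered reads), libraries, replicate block and control cultures. The tables hold 21 further per-library columns that were not used.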

Additional observations from a re-analysis of the deposited data

Results flagged for a closer look

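Dixon's test was applied to the values of each group for 47 list sums and 16 pair ratios, 126 groups in all on the log2 scale, and it marked 9 sums in which 1 library stood apart from the rest. Chance marks about 1 in 20 groups. In nuclei, library 5 had 3406 summed CPM of voltage-gated sodium channels against 2955 to 2966 in the others. Library 6 of the nuclei had 856.2 CPM of choroid plexus and ependyma genes against 175.2 to 229.6, and 2846 CPM of cholesterol synthesis genes against 2342 to 2403. In cultures, culture 1 had 12604 CPM of calcium and cyclic nucleotide signalling genes against 9396 to 9891, and 7755 CPM of cholesterol synthesis genes against 4079 to 4955. Culture 2 was low for transcription factors of new-born neurons, at 2894 CPM against 3438 to 3748, and for genes of DNA methylation, at 1583 CPM against 1740 to 1821. Culture 4 was low for oligodendrocyte genes, at 653.2 CPM against 923.6 to 1060, and for choroid plexus genes, at 39.67 CPM against 81.43 to 121.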

How the results depend on the processing

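Each single library left out in turn gave 2585 to 3251 genes higher in nuclei, 3231 to 3704 higher in cultures, 633 to 957 over 2-fold higher in nuclei (633 without nuclei library 6), 983 to 1186 over 2-fold higher in cultures and 9 to 10 pairs with nuclei higher throughout. With the shLuc cultures in place of the shLuciferase cultures, 2453 genes were over 2-fold higher in nuclei and 2476 in cultures. Of the 954 and 1149 genes called in the main comparison, 38 and 12 then had the opposite sign, and under every other setting none did. Of 223 named genes tested, 213 were called, and 195 of these kept sign and call under every setting. Many were named for passing the 2-fold test or for their size. These shares therefore follow from the choice and do not measure stability over all genes. Over all tested genes 49.4% were called in either direction. Over the 47 gene lists, the count of called members in a direction moved by over 1.5 times against the shLuc cultures in 31, and the median changed sign in 6. Counts of 1 or 2 members higher in nuclei, in the growth-cone, progenitor, proteasome, BAF and fetal growth lists, moved by 1 under 2 to 10 other settings each. Against the shLuc cultures the sign turned for Cnih3 (-0.97), Ddx3y (2.57), Gabra2 (-2.56), Gfap (1.16), Ndn (-0.97), Nlgn3 (-0.20), Ptbp2 (0.46), Rpl3 (-1.67), Rps2 (-2.26), Rpsa (-2.63) and Malat1 (3.54), and the calls of Arntl, Dio2, Dlx6os1, Npas1 and Ppp1r9b were lost. Malat1, which was not called, also turned with DESeq2 size factors (0.0409), upper-quartile factors (0.0164), Rn45s kept in the totals (0.0214), without single libraries (-0.38 to 0.27) and in the 8 libraries of the replicate block (0.45, and 0.45 without the block). The cause was not tested. The groups share the replicate numbers 1, 2, 5 and 6, but the labels state no pairing. Like-numbered libraries had correlations of -0.0467 to 0.0149, and unlike-numbered ones of -0.0658 to 0.0926. Such values near 0 cannot show whether the numbers pair the samples. With the replicate block over these 8 libraries there were 3030 genes higher in nuclei and 3469 genes higher in cultures, against 3060 and 3548 in the same libraries without it, an alternative chosen after seeing the data. The groups of 4 and 6 libraries, the confounding of tissue, age, RNA fraction and virus, and 3029938 reads in the shallowest culture limit what low genes show. In nuclei the genes with a read did not follow depth, which limits low genes as well. The level of Xist followed the group too, and the part of sex was not tested.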
